A study of Mus musculus with 20 samples.

Results

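The genes described here are 10 genes of primed pluripotency and Nodal signalling, Fgf5, Otx2, Pou3f1, Dnmt3a, Dnmt3b, Tdgf1, Foxd3, Lefty1, Lefty2 and Nodal. They were chosen by symbol from the 55421 features of the deposited tables, and each symbol matched 1 feature. All 10 passed the filter on low counts in both cell types. Gene-body RNA counts were available for 20 mouse libraries. Of these, 10 were from embryonic stem cells (ESC; parental line KY1.1) and 10 from induced presomitic mesoderm colonies (iPSM). The iPSM colonies were differentiated from E14TG2a ESC that carry a luciferase reporter under the Hes7 promoter (pHes7-luc). In each cell type there were 3 genotypes. The control line had no tetO transgene named in its label. The tetO-Clock/Bmal1 clones (1 and 7 in ESC, 12 and 20 in iPSM) express Clock and Bmal1 when doxycycline (dox) is added. The tetO-Clock/Bmal1DN clones (ClockBmal1DN; 5 and 6 in ESC, 7 and 19 in iPSM) express Clock with Bmal1DN. ESC had dox at 500 ng/mL for 6 hours and iPSM at 1000 ng/mL for 2 hours, and each line was also measured untreated. Each transgene group therefore had 2 libraries, 1 per clone, and each control group had 1. The replicates are separate clones of 1 parental line, so a clone's own history is part of the spread.

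Embryonic stem cells pass from a naive through a formative to a primed state before they leave pluripotency. The change comes with expression of the transcription factors Otx2 and Pou3f1 (also called Oct6), the growth factor Fgf5 and the de novo DNA methyltransferases Dnmt3a and Dnmt3b. Foxd3 is a forkhead factor of pluripotent cells and of neural crest. Nodal is a TGF-beta family ligand that signals through activin receptors and Smad2 and Smad3 with the help of the coreceptor Tdgf1 (Cripto), and it induces its own inhibitors Lefty1 and Lefty2. The same pathway patterns the epiblast and the primitive streak, from which presomitic mesoderm arises.

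In mm10 the genes lay on 8 chromosomes, and positions follow the deposited transcript models. Lefty2 (chr1:180893108-180899103) and Lefty1 (chr1:180935022-180938400) are neighbours on the plus strand, 35.9 kb apart. Nodal lay at chr10:61417972-61425338 (plus), Tdgf1 at chr9:110939603-110946158 (minus), Foxd3 at chr4:99656299-99658622 (plus, 1 exon) and Pou3f1 at chr4:124656807-124660655 (plus, 1 exon). Fgf5 lay at chr5:98254184-98277030 (plus), Otx2 at chr14:48657851-48673819 (minus), Dnmt3a at chr12:3807030-3914443 (plus) and Dnmt3b at chr2:153649450-153687730 (plus). Counts covered the whole gene body, exons and introns.

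Lefty1 and Lefty2 are close paralogs, which limits how far reads can be split between them. Their coding sequences are 1107 bases each and were identical at 91.9% of positions in the annotated transcripts, with 90 differences. Of the 101-base windows (the read length) along the annotated Lefty1 transcript, 4.61% occurred unchanged in Lefty2, and 2.95% of those of Lefty2 occurred in Lefty1. A read that falls wholly in such a window cannot be assigned to 1 of the genes by its own bases. The libraries hold read pairs, and what the other read of a pair adds was not examined.

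CLOCK and BMAL1 bind DNA at E-boxes, whose canonical form is CACGTG. After Clock/Bmal1 induction in ESC none of the 10 genes passed the test for a difference (below). Both treated clones were lower than both untreated ones for 6 of the 10, and for 21.7% of all genes tested. Of these 6, the upstream windows of Foxd3, Tdgf1 and Nodal are printed as examples, Foxd3 because its window holds the motif and Tdgf1 and Nodal as coreceptor and ligand of 1 pathway. They were chosen after their values were seen. CACGTG, which reads the same on both strands, is in capitals where it occurs. The sequences are the 250 bases before the RefSeq start site in GRCm38.p6, on the gene's strand. They span chr4:99656049-99656298, chr9:110946159-110946408 and chr10:61417722-61417971 in this order:
Foxd3: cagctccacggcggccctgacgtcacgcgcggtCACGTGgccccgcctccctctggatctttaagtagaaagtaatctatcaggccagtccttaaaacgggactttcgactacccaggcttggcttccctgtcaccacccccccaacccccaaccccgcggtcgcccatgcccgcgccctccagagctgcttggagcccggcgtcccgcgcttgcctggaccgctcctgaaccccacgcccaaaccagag
Tdgf1: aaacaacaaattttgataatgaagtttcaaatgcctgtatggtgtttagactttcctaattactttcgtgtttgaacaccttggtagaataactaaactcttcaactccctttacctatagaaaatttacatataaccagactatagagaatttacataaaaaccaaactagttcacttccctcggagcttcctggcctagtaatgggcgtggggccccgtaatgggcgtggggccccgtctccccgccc
Nodal: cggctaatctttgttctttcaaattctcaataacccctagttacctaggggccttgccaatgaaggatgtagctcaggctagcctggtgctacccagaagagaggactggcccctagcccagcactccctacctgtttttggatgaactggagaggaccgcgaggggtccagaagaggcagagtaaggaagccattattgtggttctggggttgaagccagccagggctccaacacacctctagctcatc
Promoter windows were matched for 7 of the 10 genes, 12 windows in all. CACGTG occurred in 2 of the 12, that of Foxd3 (first base 217 bases before the start, written -217 in the usual numbering) and 1 of the 3 windows of Dnmt3a (chr12:3891494-3891743, first base at -80). That Dnmt3a window precedes a RefSeq start inside the counted gene body, as do those of Otx2. The windows of Dnmt3b and Otx2, which also had lower values, held none. Of all 32851 promoter windows of 300 bases in the table, 7.15% held the motif. A match describes letters only. The windows of Lefty1, Lefty2 and Pou3f1 were not used here.

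Library totals ran from 40315227 to 57299360 counts in ESC and from 38184055 to 47767592 counts in iPSM. Levels are given as CPM, counts scaled to the library total after trimmed-mean (TMM) normalisation. In each of the 8 transgene clones the CPM of Clock and of Arntl (Bmal1) was higher with than without dox. Clock in ESC was at 39.59 and 59.23 CPM in untreated and 699.9 and 574.5 CPM in treated Clock/Bmal1 clones 1 and 7, and at 29.34 and 28.04 CPM in the untreated and treated control. Arntl in iPSM was at 56.48 and 77.41 CPM in untreated and 3216 and 4702 CPM in treated Clock/Bmal1 clones 12 and 20. In ClockBmal1DN iPSM clones 7 and 19 Arntl was at 41.8 and 66.03 CPM without and 887.8 and 153 CPM with dox, so its level after dox differed widely between these clones. One library, the untreated control of iPSM, was unlike the rest, with reads over 69.39% of features where the others had 43.79 to 53.96%. In ESC, too, the untreated control lay apart from the other libraries, with reads over 43.79% of features (49.33 to 52.97% in the others) and a score of 104.2 on the first principal component of log2 CPM (-59.97 to 31.55 in the others). Neither library enters a contrast, though both are in the fits, and their levels are given below only beside those of the clones.

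Cell-type markers fitted the labels in part. The summed level of 15 naive pluripotency markers was 1323 to 2025 CPM over the ESC libraries and 190.7 to 319.5 CPM over the iPSM libraries, and that of 14 presomitic mesoderm markers was 50.78 to 169.3 and 889.1 to 1667 CPM. Among the latter, Msgn1, Tbx6 and Hes7 were higher in iPSM, while Mesp2 was lower by 2.86 ± 0.583 on the log2 scale (adjusted p = 5.71e-04, edgeR) and Lfng and Fgf17 did not pass. The sum of 12 fibroblast markers, genes of the feeder cells often used under ESC, was 98.35 to 818.1 CPM in ESC and 79.33 to 112 CPM in iPSM. In ESC it was 152.6 and 186.5 CPM (untreated, dox) in Clock/Bmal1 clone 1, 430.5 and 407.1 CPM in clone 7, 169.2 and 169.3 CPM in ClockBmal1DN clone 5, and 818.1 and 126.8 CPM in clone 6. The highest sum thus belonged to 1 library, untreated ClockBmal1DN clone 6, and not to both libraries of that clone. The share of fibroblast RNA in the ESC results was not tested.

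In untreated cells Tdgf1, Dnmt3b, Lefty1, Lefty2 and Nodal filled the upper places in both ESC and iPSM, in a different order. Levels were compared between genes per length, as the authors' RPKM (reads per kilobase of gene body, introns included, scaled to library size), over the 4 untreated transgene libraries of a cell type (mean ± SD, n = 4). In ESC the coreceptor Tdgf1 was highest with 93.6 ± 14.46 RPKM. Dnmt3b had 23.88 ± 2.495, Lefty1 23.17 ± 7.244, Lefty2 12.23 ± 4.475, Nodal 8.607 ± 0.7057, Pou3f1 8.365 ± 0.4108 and Foxd3 7.413 ± 0.7462 RPKM. Otx2 with 1.844 ± 0.3341 and Dnmt3a with 1.442 ± 0.1942 RPKM followed, and Fgf5 was lowest with 0.1285 ± 0.06956 RPKM. The ranges of neighbours in this order overlapped except between Tdgf1 and Dnmt3b, between Foxd3 and Otx2, and between Dnmt3a and Fgf5.

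In iPSM the inhibitor Lefty1 was highest with 14.27 ± 3.635 RPKM, followed by Lefty2 (5.96 ± 1.033), Tdgf1 (5.919 ± 1.826), Dnmt3b (5.778 ± 0.6865) and the ligand Nodal (3.749 ± 0.4793). Pou3f1 (0.9622 ± 0.2159), Dnmt3a (0.905 ± 0.1354), Otx2 (0.6832 ± 0.125) and Fgf5 (0.4364 ± 0.1148) came next, and Foxd3 was lowest with 0.1256 ± 0.07023 RPKM. Only between Lefty1 and Lefty2, Dnmt3b and Nodal, Nodal and Pou3f1, and Fgf5 and Foxd3 did the ranges of neighbours in this order not overlap. Because RPKM here divides by the gene body, genes with long introns rank lower than per kilobase of mRNA. On that second scale Dnmt3b, not Lefty1, came first in iPSM (50.49 ± 4.665 CPM per kb of mRNA), with Lefty1 at 28.61 ± 7.544, and Dnmt3a moved from the 9th to the 6th place in ESC (17.57 ± 2.522).

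**Figure D1:**
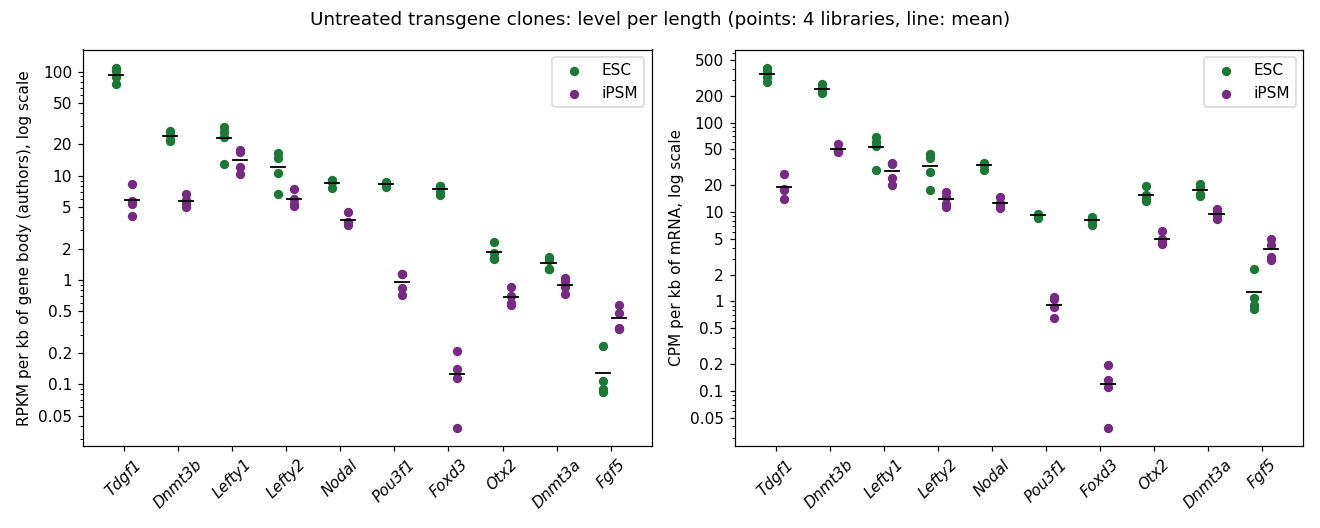
Level per length (log axes) of the 10 genes in the 4 untreated transgene libraries of ESC (green) and iPSM (purple), per kb of gene body as deposited (left) and per kb of mRNA (right); points are libraries and lines their means. Fgf5 is the only gene whose iPSM points lie above the ESC points, and Foxd3 has the widest gap.

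The comparison of iPSM with ESC asks how these genes stand in differentiated cells of 1 line and in ESC of another. The E14TG2a ESC that gave rise to the iPSM were not among the libraries. Of the 10 genes, 9 were lower and 1 (Fgf5) was higher in untreated iPSM than in untreated ESC. In this comparison 60% of all 26689 genes tested passed (28.8% lower, 31.3% higher; 16021 genes), so passing alone sets no gene apart. The median log2 difference of the 10 genes was -1.51, and that of all genes tested was 0.0527. The contrast uses the 8 untreated transgene libraries. Cell type cannot be told apart from parental line, culture and the Hes7 reporter. In bulk RNA, fewer cells that express a gene and less RNA per cell cannot be told apart either.

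Of the 10 genes, the transcription factor Foxd3 differed most. It was at 18.2, 20.42, 20.15 and 16.61 CPM in the 4 ESC libraries (Clock/Bmal1 clones 1 and 7, ClockBmal1DN clones 5 and 6) and at 0.3033, 0.08899, 0.4531 and 0.2567 CPM in the 4 iPSM libraries (clones 12, 20, 7 and 19). The iPSM values rest on 16, 4, 19 and 13 reads. The fitted difference was -6.13 ± 0.295 on the log2 scale, 70.15-fold lower (edgeR, adjusted p = 6.14e-10). Pou3f1 was at 33.11, 36.61, 35.65 and 35.52 CPM in ESC and at 2.54, 3.292, 4.102 and 4.265 CPM in iPSM, 10.08-fold lower (log2 -3.33 ± 0.189, adjusted p = 2.37e-09). Otx2 was 27.4 to 40.68 CPM in ESC and 9.188 to 12.76 CPM in iPSM (log2 -1.63 ± 0.265, adjusted p = 7.79e-05). None of the 3 had overlapping groups. The share of all genes without overlap between the cell types was not counted.

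Among the Nodal genes, the coreceptor differed far more than the ligand and its inhibitors. Tdgf1 was at 794.3, 724.2, 620.6 and 549.8 CPM in ESC and at 34.98, 26.96, 51.89 and 33.92 CPM in iPSM, 18.28-fold lower (log2 -4.19 ± 0.203, adjusted p = 6.14e-10). Nodal was at 74.7, 71.28, 70.43 and 61.2 CPM in ESC and at 23.02, 26.61, 30.81 and 25.31 CPM in iPSM, 2.627-fold lower (log2 -1.39 ± 0.133, adjusted p = 3.78e-07). Neither gene had overlapping groups, a trait for which no share over all genes was counted. Lefty2 was 43.28 to 109.8 CPM in ESC and 28.29 to 41.64 CPM in iPSM (log2 -1.17 ± 0.162, adjusted p = 1.63e-05). Lefty1 was 47.05 to 110.6 CPM in ESC and 32.79 to 57.48 CPM in iPSM, and its groups overlapped because ESC ClockBmal1DN clone 5 was low (log2 -0.91 ± 0.188, adjusted p = 6.18e-04).

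The methyltransferases were lower in iPSM by unequal amounts. Dnmt3b was at 1140, 933, 1027 and 902 CPM in ESC and at 209, 194.5, 239.2 and 202.6 CPM in iPSM, 4.736-fold lower (log2 -2.24 ± 0.112, adjusted p = 7.33e-10). Dnmt3a was 146.9 to 197.9 CPM in ESC and 79.98 to 103.2 CPM in iPSM, 1.818-fold lower (log2 -0.86 ± 0.14, adjusted p = 7.67e-05). Fgf5, a ligand of the primed epiblast, went the other way. It was at 2.733, 5.817, 2.05 and 2.272 CPM in ESC and at 7.28, 7.809, 12.31 and 10.7 CPM in iPSM, 3.062-fold higher (log2 1.61 ± 0.48, adjusted p = 0.0089). With the Clock/Bmal1 clones alone Fgf5 did not pass (log2 0.82, adjusted p = 0.34), and with the ClockBmal1DN clones alone it did (log2 2.41, adjusted p = 0.0103).

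Other genes of the pathway did not follow the 10 genes as a block. Of 19 further Nodal pathway genes, 10 were higher and 9 lower in iPSM, with a median log2 difference of 0.578. The ligand Gdf3 was 12.37-fold lower (log2 -3.63 ± 0.256, adjusted p = 1.91e-08) and the coreceptor Cfc1 was lower by 2.71 ± 0.681 on the log2 scale (adjusted p = 0.00294). Cfc1 had few counts, 32.5 to 55.5 in the untreated ESC clones and 0, 21, 5 and 3 in untreated iPSM clones 12, 20, 7 and 19. The receptor Acvr1c (Alk7) passed as higher (adjusted p = 3.03e-06), from 1 and 4 reads summed over the untreated ESC Clock/Bmal1 and ClockBmal1DN clones to 140 and 84 reads over those of iPSM. The inhibitor Cer1 also passed as higher (adjusted p = 0.0372), from 1 and 3 reads to 11 and 19.5 counts. All 11 were from clone 20, and untreated clone 12 had 0 reads of Cer1. Smad2, Smad3 and Smad4, the intracellular transducers, were higher, with log2 differences of 0.58 ± 0.0981, 1.18 ± 0.162 and 1.03 ± 0.109 (adjusted p = 1.15e-04, 1.59e-05 and 1.07e-06), while their partner Foxh1 was 4.035-fold lower (adjusted p = 4.63e-08).

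Of 7 mesendoderm genes that respond to Nodal in embryos, 4 were higher, among them T with a log2 difference of 5.23 ± 0.415, Mixl1 with 4.53 ± 0.297 and Foxa2 with 1.65 ± 0.412 (adjusted p = 6.21e-08, 9.39e-09 and 0.00281). The other 3, Gsc, Eomes and Sox17, did not pass (log2 -0.40 ± 0.375, 0.58 ± 0.367 and 0.86 ± 0.372). T is also a presomitic mesoderm marker. Of 12 further formative and primed genes, 8 were lower, 1 was higher (Lin28b, log2 1.06 ± 0.159) and 3 did not pass. Those with the largest differences were the methyltransferase cofactor Dnmt3l (56.12-fold lower), Tcf15 (8.04-fold lower), Utf1 (6.616-fold lower) and Grhl2 (3.365-fold lower). The pluripotency factors Pou5f1 and Sox2 were 4.594-fold and 5.683-fold lower (adjusted p = 1.62e-09 and 2.85e-09).

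**Figure D2:**
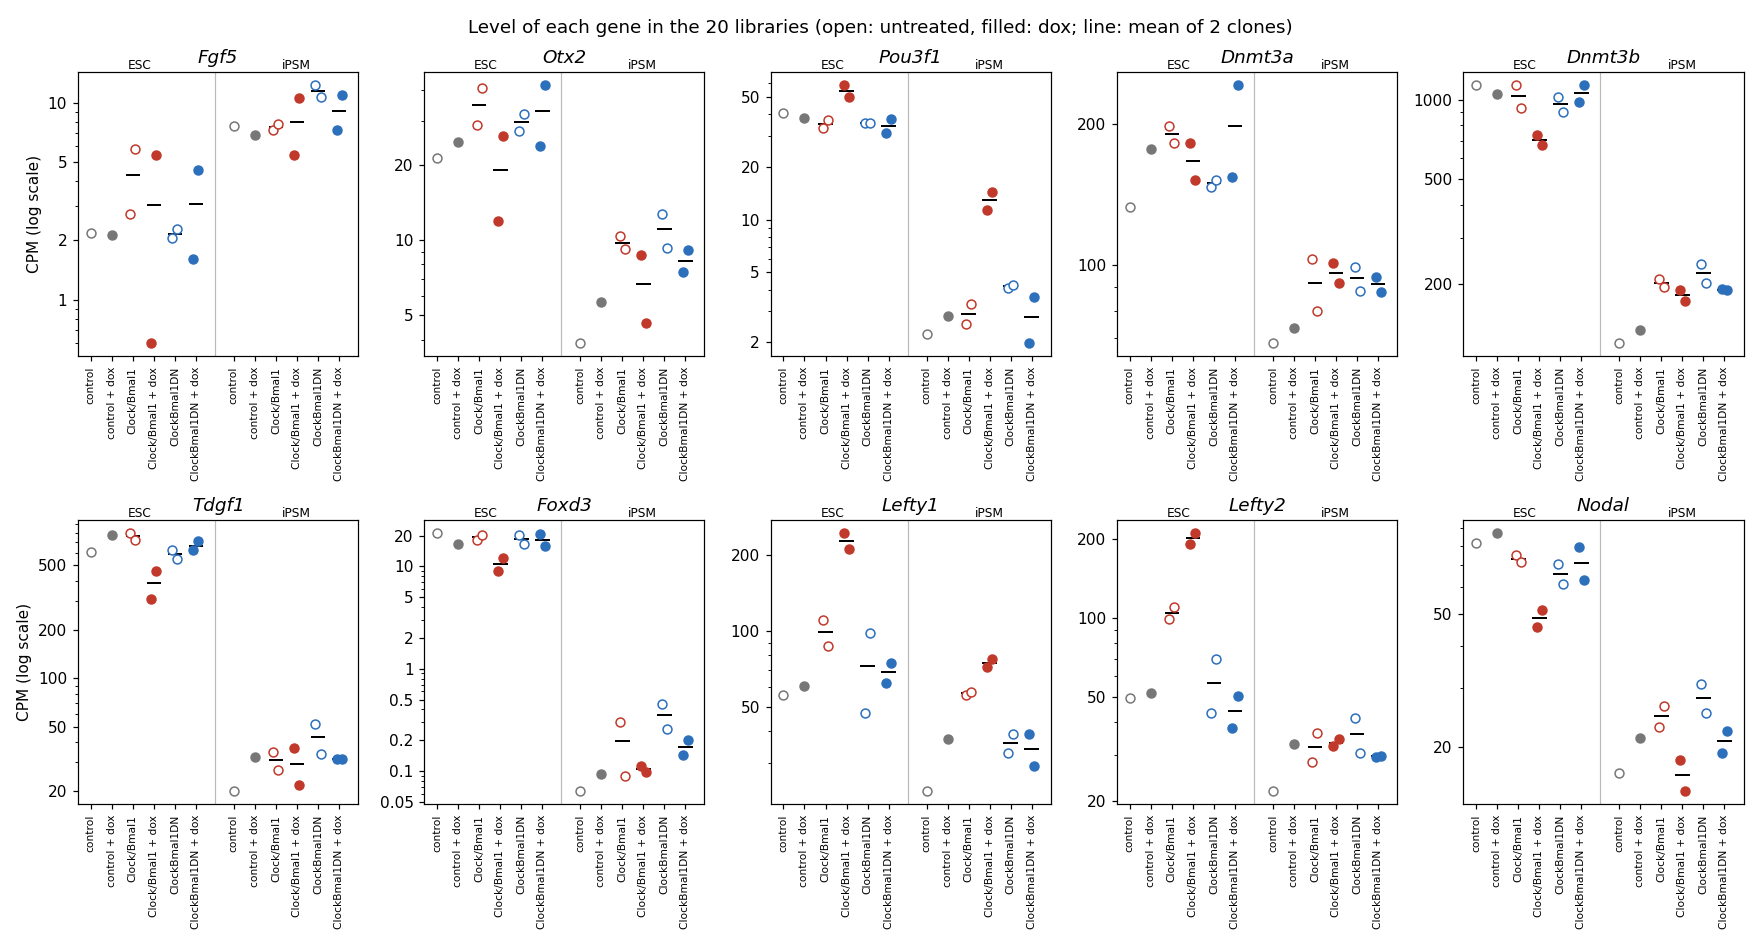
CPM (log axis) of the 10 genes in each of the 20 libraries, scaled over all 20 so that values differ slightly from those scaled within a cell type; open points are untreated, filled points dox, grey the control line, red Clock/Bmal1, blue ClockBmal1DN, and lines the mean of 2 clones. In ESC the red filled points of Lefty1 and Lefty2 lie above the other ESC libraries. Those of Tdgf1, Foxd3, Nodal and Dnmt3b lie below them. In iPSM those of Pou3f1 lie above the other iPSM libraries. Of these dox differences only that of Pou3f1 in iPSM passed in edgeR.

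Induction of Clock/Bmal1 in ESC was compared within the 10 ESC libraries. None of the 10 genes passed in edgeR at an adjusted p of 0.05, while 0.422% of the 22500 genes tested did (95 genes; 0.404% as higher, 0.0178% as lower). The same fit with the clone as a block called 158 genes and none of the 10. The count over all genes was 23 without treated clone 1, 9 without untreated clone 1 and 7 without untreated clone 7. At an unadjusted p under 0.05 there were 1686 genes, 8 of them among the 10. The CPM of the 2 treated and the 2 untreated clones did not overlap for 9 of the 10 genes, 3 with higher and 6 with lower values after dox, and for 40.6% of all genes tested (18.9% higher, 21.7% lower). The values below are therefore given as measurements that did not pass. The share of all genes whose treated clones were the 2 highest or 2 lowest ESC libraries was not counted.

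The Nodal inhibitors and the Nodal ligand and coreceptor had values on opposite sides. Lefty1 was at 102.2 and 82.42 CPM in untreated clones 1 and 7 and at 223.4 and 193.5 CPM after dox, against 51.08 and 55.19 CPM in the untreated and treated control. The treated clones were above every other ESC library. The fitted difference was 1.18 ± 0.313 on the log2 scale, 2.258-fold (adjusted p = 0.268, edgeR). Lefty2 was at 91.24 and 103.4 CPM before and 174.2 and 192.5 CPM after dox (log2 0.91 ± 0.249, adjusted p = 0.282), with 45.47 and 47.2 CPM in the control. Here, too, both treated clones were the highest ESC libraries.

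Tdgf1 was at 733.4 and 681.7 CPM in the untreated and at 284 and 422.2 CPM in the treated clones. Both treated clones were the lowest ESC libraries, since the control had 555.5 and 700.3 CPM and the ClockBmal1DN clones 521.6 to 644.8 CPM. The fitted difference was -1.003 ± 0.203 (adjusted p = 0.101, edgeR), the smallest p of the 10 genes. Without treated clone 7 it passed (log2 -1.27, adjusted p = 0.0439). The processed pseudogene Tdgf1-ps1, of whose 101-base windows 20.3% occur in Tdgf1, had values on the same side (log2 -1.27 ± 0.261, adjusted p = 0.107), and 4.59% of the windows of Tdgf1 occur in it.

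Nodal was at 68.98 and 67.1 CPM without and 41.78 and 46.84 CPM with dox (log2 -0.62 ± 0.188, adjusted p = 0.369). The control had 74.66 and 79.49 CPM, and the ClockBmal1DN clones had 57.46 to 73.5 CPM, so the treated Clock/Bmal1 clones were again the lowest ESC libraries. Over the 10 ESC libraries the genes with the most similar profile to Nodal were Slc52a2, Tmem17 and Slc35f2, with root mean square differences of centred log2 CPM of 0.0643, 0.0891 and 0.0895, beside an SD of 0.3 for Nodal itself. For Tdgf1 (SD 0.41) they were Emb (0.144), Creb3l4 (0.154) and Slc16a3 (0.164).

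Among the transcription factors, Pou3f1 had the opposite sign to Foxd3 and Otx2. Pou3f1 was at 30.58 and 34.46 CPM without and 53.33 and 45.67 CPM with dox (log2 0.61 ± 0.191, adjusted p = 0.394), and the treated clones were the highest ESC libraries. Foxd3 was at 16.8 and 19.22 CPM without and 8.236 and 11.04 CPM with dox (log2 -0.90 ± 0.255, adjusted p = 0.316), and the treated clones were the lowest. The control had 19.33 CPM without and 14.93 CPM with dox, and the ClockBmal1DN clones had 14.28 to 19.26 CPM. Otx2 was at 26.75 and 38.29 CPM without and 10.87 and 23.97 CPM with dox. Treated clone 7 lay within the range of the other ESC libraries (log2 -0.90 ± 0.391, adjusted p = 0.654).

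Of the methyltransferases, Dnmt3b was at 1053 and 878.3 CPM without and 669.6 and 616.9 CPM with dox (log2 -0.59 ± 0.163, adjusted p = 0.304), and no other ESC library was as low. Dnmt3a was at 182.7 and 171.5 CPM without and 166 and 139.1 CPM with dox (log2 -0.22 ± 0.216, adjusted p = 0.807). Fgf5 was at 2.524 and 5.475 CPM without and 0.5491 and 4.983 CPM with dox. Its clone 1 changed by -2.12 and its clone 7 by -0.14 on the log2 scale (prior count 2), so the clones did not show a common size (fitted log2 -0.53 ± 0.827, adjusted p = 0.886).

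**Figure D3:**
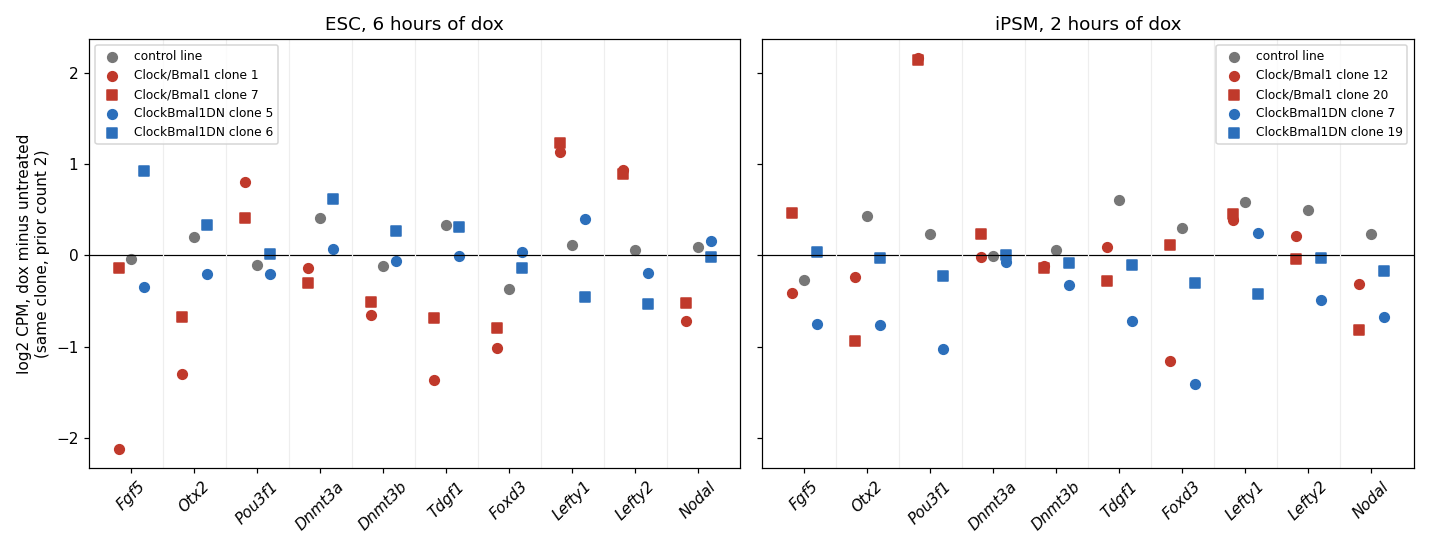
Difference in log2 CPM between the treated and the untreated library of the same clone (prior count 2) for ESC after 6 hours and iPSM after 2 hours of dox; red circles and squares are the Clock/Bmal1 clones, blue the ClockBmal1DN clones and grey the control line. In ESC both red points are above 0 for Pou3f1, Lefty1 and Lefty2 and below 0 for the other 7 genes. None of these ESC differences passed in the reported edgeR fit. The share of all genes whose clones agree in sign was not counted. In iPSM the red points of Pou3f1 are at 2.16 and 2.14.

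In this comparison the lists of Nodal pathway, mesendoderm and other formative and primed genes held no gene that passed. None of the 17 Nodal pathway genes tested passed (median log2 difference 0.0916), and the lowest p-values were those of the Smad repressor Skil (log2 -0.69 ± 0.186, adjusted p = 0.271) and Foxh1 (log2 -0.66 ± 0.231, adjusted p = 0.488). Foxh1 was at 66.42 and 73.29 CPM without and 37.43 and 50.7 CPM with dox. None of the 7 mesendoderm genes passed (median -0.848), nor did any of the 12 formative and primed genes (median -0.263). The median over all genes tested was -0.00752. Pou5f1 (log2 -0.24 ± 0.166) and Sox2 (log2 -0.40 ± 0.221) did not pass. Of 12 presomitic mesoderm markers tested 1 passed, the Notch modifier Lfng (6.99-fold higher, adjusted p = 0.00298), and the sum of the 14 markers was 63.26 and 103.6 CPM without and 130.6 and 169.3 CPM with dox in clones 1 and 7. The part of these markers in the values of the 10 genes was not tested.

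In ESC with ClockBmal1DN, none of the 10 genes passed, and none had an unadjusted p under 0.05 (edgeR; 900 genes of 22500 did, and 0.00444% passed, 1 gene). The treated and untreated clones overlapped in all 10 genes, against non-overlap in 29% of all genes tested. Lefty1 was at 43.9 and 93.3 CPM without and 57.86 and 68.01 CPM with dox in clones 5 and 6. Lefty2 was at 40.38 and 66.38 CPM without and 35.28 and 45.82 CPM with dox. Tdgf1 was at 579 and 521.6 CPM without and 576.2 and 644.8 CPM with dox. The fitted differences of the 10 genes lay between -0.40 (Lefty2, ± 0.249) and 0.47 (Fgf5, ± 0.838) on the log2 scale. The untreated arm holds clone 6 with its fibroblast marker sum of 818.1 CPM (126.8 CPM with dox). The 12 fibroblast markers had a median log2 difference of -1.77, none passed, and their part in these values was not tested.

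The difference between the 2 transgenes' effects in ESC was tested directly. It passed for none of the 10 genes and for 0.0578% of all genes (13), and 7 of the 10 had an unadjusted p under 0.05, as did 1070 of all 22500 genes. The lowest p was that of Tdgf1 (log2 -1.15 ± 0.285, adjusted p = 0.442, edgeR). It was followed by Lefty2 (1.31 ± 0.352, adjusted p = 0.549), Dnmt3b (-0.69 ± 0.23, adjusted p = 0.847) and Lefty1 (1.3 ± 0.439, adjusted p = 0.858). Without untreated ClockBmal1DN clone 6 the difference for Lefty1 was 0.66 on the log2 scale (adjusted p = 1, edgeR). Before dox the Clock/Bmal1 clones already had more Lefty2 than the ClockBmal1DN clones, 97.32 ± 8.598 against 53.38 ± 18.38 CPM (SD, n = 2), which did not pass (log2 0.87 ± 0.25, adjusted p = 1, edgeR). That untreated comparison called none of the 10 genes and 0.00889% of all genes. After dox Clock was at 699.9 and 574.5 CPM in Clock/Bmal1 clones 1 and 7. In ClockBmal1DN clones 5 and 6 it was at 324.5 and 1499 CPM. Arntl was at 2203 and 4135 CPM and at 1615 and 4068 CPM in the same order. The part of transgene level in the differences between transgenes in ESC was not tested.

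In iPSM, Clock/Bmal1 induction raised Pou3f1, a POU factor of the primed epiblast and of neural cells. Pou3f1 was at 2.731 and 3.536 CPM in untreated clones 12 and 20 and at 12.33 and 15.78 CPM after 2 hours of dox. The control had 2.554 and 3.007 CPM, and ClockBmal1DN clones 7 and 19 had 4.392 and 4.551 CPM without and 2.126 and 3.895 CPM with dox. No other iPSM library came near the treated Clock/Bmal1 clones, and these were in turn below every ESC library. The fitted difference was 2.17 ± 0.3 on the log2 scale, 4.488-fold (edgeR, adjusted p = 0.00438). It was the only 1 of the 10 genes that passed, and 1.02% of the 24805 genes tested did (254 genes; 0.996% as higher, 0.0282% as lower). Without treated clone 20 it missed the threshold (log2 1.98, adjusted p = 0.0561), and in the fits that left out another of the 4 libraries it passed. Leaving out treated clone 20 brought the calls over all genes to 83, and leaving out untreated clone 12 brought them to 678.

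Pou3f1 overlaps the annotated antisense transcript Gm2164 on the opposite strand, which was counted apart because the libraries are stranded. Gm2164 was at 4.545 and 1.696 CPM without and 8.596 and 14.11 CPM with dox in clones 12 and 20 (log2 1.86 ± 0.414, adjusted p = 0.075). Both transcripts had higher values in the treated clones, and Gm2164 did not pass. Whether a share of its reads belongs to Pou3f1 was not tested.

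The other 9 genes did not pass in iPSM with Clock/Bmal1. Nodal had the next lowest p, with 24.75 and 28.57 CPM without and 19.89 and 16.2 CPM with dox (log2 -0.56 ± 0.178, adjusted p = 0.351, edgeR). Lefty1 was at 59.76 and 61.74 CPM without and 78.07 and 84.83 CPM with dox (log2 0.42 ± 0.165, adjusted p = 0.651), while its untreated and treated control had 26.54 and 39.79 CPM. Lefty2, which had higher values with dox in ESC, was at 30.41 and 38.97 CPM without and 35.2 and 37.84 CPM with dox (log2 0.07 ± 0.179). Tdgf1 was at 37.61 and 28.96 CPM without and 40.02 and 23.86 CPM with dox (log2 -0.06 ± 0.256). Treated and untreated clones did not overlap for 5 of the 10 genes (Pou3f1 and Lefty1 higher, Otx2, Dnmt3b and Nodal lower), against 23.7% of all genes. Foxd3 had 4 to 16 reads in these 4 libraries, and a difference was not detectable at this depth (log2 -0.90 ± 0.811).

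None of the 19 Nodal pathway genes, the 7 mesendoderm genes or the 12 formative and primed genes passed in iPSM with Clock/Bmal1 (medians 0.0281, -0.232 and -0.112, and -0.0208 over all genes). The lowest p-values in the 3 lists were those of Smad2 (log2 0.36 ± 0.126, adjusted p = 0.494), Mixl1 (log2 -0.64 ± 0.222, adjusted p = 0.485) and Sall2 (log2 -0.48 ± 0.171, adjusted p = 0.494).

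In iPSM with ClockBmal1DN none of the 10 genes passed, while 0.00403% of genes did (1 gene, and 159 at an unadjusted p under 0.05). All 10 fitted differences were negative, with a median of -0.37 on the log2 scale beside 3.97e-04 over all genes. For 7 of the 10 the treated clones lay below the untreated ones, against 12.3% of all genes (25.3% in either direction). Nodal was at 32.99 and 27.01 CPM without and 20.6 and 24.01 CPM with dox in clones 7 and 19 (log2 -0.43 ± 0.178, adjusted p = 1, edgeR). Most of the median came from clone 7: its differences were -1.03 for Pou3f1, -0.77 for Otx2, -0.72 for Tdgf1 and -0.68 for Nodal, and those of clone 19 were -0.22, -0.03, -0.10 and -0.17. In the control the same genes had differences of 0.23, 0.43, 0.61 and 0.23, measured against the untreated control library that stood apart.

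The difference between the 2 transgenes' effects in iPSM passed for Pou3f1 alone among the 10 genes. It was 2.74 ± 0.42 on the log2 scale (edgeR, adjusted p = 0.0239), and 0.278% of all genes passed (69). It missed the threshold when treated Clock/Bmal1 clone 20 (log2 2.55, adjusted p = 0.137), treated ClockBmal1DN clone 7 (2.37, 0.143), untreated ClockBmal1DN clone 7 (2.76, 0.119) or untreated ClockBmal1DN clone 19 (2.72, 0.133) was left out. The count over all genes ran from 16 to 167 with 1 of the 8 libraries left out. The transgenes were not induced to equal levels. After dox Arntl was at 3216 and 4702 CPM in Clock/Bmal1 clones 12 and 20 and at 887.8 and 153 CPM in ClockBmal1DN clones 7 and 19. Clock was at 1750 and 2469 CPM and at 1023 and 1058 CPM in the same order. The part of transgene level in the Pou3f1 difference was not tested. In the untreated iPSM clones none of the 10 genes and 0% of all genes passed between the genotypes (edgeR; 1190 genes at an unadjusted p under 0.05). Without untreated Clock/Bmal1 clone 12 that comparison called 1779 genes, Lefty1 among them (adjusted p = 0.0398). Lefty1 was the only 1 of the 10 with an unadjusted p under 0.05 in the full comparison, with 60.75 ± 1.4 CPM in the Clock/Bmal1 and 38.42 ± 4.674 CPM in the ClockBmal1DN clones (log2 0.66 ± 0.166, adjusted p = 0.842).

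The Clock/Bmal1 effect was also compared between the cell types in 1 fit of all 20 libraries, with the doses and times different as given above. No gene passed (0% of 26689; 1074 at an unadjusted p under 0.05 in edgeR, 4 of them among the 10 genes). The effect on Pou3f1 was larger in iPSM by 1.51 ± 0.348 on the log2 scale (adjusted p = 0.713, edgeR). For Tdgf1 the effect was -1.003 in ESC and -0.06 in iPSM in the separate fits of each cell type. In the fit of all 20 libraries the difference was 0.89 ± 0.358. For Lefty1 and Lefty2 the differences, iPSM minus ESC, were -0.80 ± 0.372 and -0.89 ± 0.32. The difference for Nodal was 0.01 ± 0.264. The effects were thus not shown to differ between ESC and iPSM for any of the 10 genes in this test.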

How the data were processed

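Total RNA of 20 libraries was read as stranded 101-base read pairs, per the labels' protocols. STAR 2.7.2a, HOMER, bcl2fastq and the mm10 build are listed in the submitters' processing notes. The authors deposited, per cell type, expected counts over gene bodies (18.1% not whole, no feature without a symbol) and the same as RPKM by gene body length. Counts were rounded to whole numbers. edgeR 4.0.16 (R 4.3.3; TMM, filterByExpr, quasi-likelihood F test, two-sided) was fitted to the 10 libraries of a cell type as 6 groups, or to all 20 as 12, with Benjamini-Hochberg adjustment over all genes tested and a threshold of 0.05. The value after ± is the standard error, the log2 difference divided by the square root of F, except beside levels, where it is the SD. The script was tested on simulated data. Alternatives were DESeq2 1.42.0, other scaling, no filter, a clone block and each library left out. Untreated and treated libraries of 1 clone are 1 cell line and so are paired: their deviations from the group means correlated over genes at r = 0.422 (ESC Clock/Bmal1), -0.0125 (ESC ClockBmal1DN), 0.189 (iPSM Clock/Bmal1) and 0.0872 (iPSM ClockBmal1DN). Named were all 10 genes, Clock and Arntl, up to 4 passing genes of largest change per list, the 3 genes most like Nodal and Tdgf1, and, chosen after their values were seen, Smad2, Smad3, Smad4, Foxh1, Pou5f1, Sox2, the presomitic markers, the overlapping or paralogous features and the lowest p-values of lists with no call. The 10 genes and the 9 lists (97 genes) were chosen with earlier results of these data known. One passing list gene and 1 sequence are not reported here. Promoter sequences are RefSeq's (GRCm38.p6); coding sequences, compared for Lefty1 and Lefty2, are from the reference annotation.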

Additional observations from a re-analysis of the deposited data

Results flagged for a closer look

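Pou3f1 in iPSM was singled out because its responses to the 2 transgenes differed by a direct test: the dox effect in the Clock/Bmal1 clones minus that in the ClockBmal1DN clones was 2.739 on the log2 scale (SE 0.42, edgeR adjusted p = 0.0239). Both Clock/Bmal1 clones had higher values with dox (log2 differences of 2.16 in clone 12 and 2.14 in clone 20). Both ClockBmal1DN clones had lower ones (-1.03 in clone 7 and -0.22 in clone 19), while the single control pair gave 0.23. Arntl after dox was at 3216 and 4702 CPM in the Clock/Bmal1 clones and at 887.8 and 153 CPM in the ClockBmal1DN clones. The part of transgene level in the difference was not tested. With 1 library left out the difference between the effects was 2.365 to 3.238 on the log2 scale. In some of these fits it missed the threshold, as given above.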

How the results depend on the processing

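For single genes the alternatives were followed only for differences that passed in some fit or had an unadjusted p under 0.05, and none of these changed sign; the smaller differences were not followed. Without treated clone 7 the ESC Clock/Bmal1 difference for Otx2 went from -0.90 to -1.53. In the iPSM against ESC comparison all 10 genes passed with any 1 of the 8 libraries left out, and 9 passed with the Clock/Bmal1 clones alone. For ESC Clock/Bmal1, where no gene passed in edgeR, DESeq2 called 2 of the 10 (Lefty1, log2 1.201, adjusted p = 0.0194; Tdgf1, -0.98, 0.0105) among 355 genes in all, and edgeR without the filter on low counts called 3 (Lefty1, 4.51e-05; Lefty2, 0.00624; Tdgf1, 1.16e-04) among 537, beside 95 in the reported fit; leaving out 1 library gave 0 to 1, and over all genes 23 without treated clone 1, 9 without untreated clone 1, 7 without untreated clone 7 and 90 without treated clone 7. For the ESC difference between transgenes the unfiltered fit called 3 (Lefty1, Lefty2 and Tdgf1; adjusted p = 0.00693, 0.00728 and 0.00602) among 410, beside 13 in the reported fit and 0 to 8 with any 1 of the 8 libraries left out; DESeq2 called 130 genes and none of the 10. With 1 library left out, the iPSM Clock/Bmal1 count was 0 to 1 (over all genes 254 in the reported fit, 83 without treated clone 20, 678 without untreated clone 12, 242 to 293 without either other library), that of the iPSM difference between transgenes 0 to 1 (over all genes 69 in the reported fit; 110 and 22 without treated Clock/Bmal1 clone 12 or 20, 167 and 93 without the same clones untreated, 16 and 18 without treated ClockBmal1DN clone 7 or 19, 24 and 16 without these untreated), and that of the untreated iPSM clones 0 to 1 (Lefty1 without untreated Clock/Bmal1 clone 12, adjusted p = 0.0398, in a fit that called 1779 genes where the reported one called 0); the unfiltered fit gave 1 there (Lefty1, 0.0298; 221 genes). For the difference between cell types DESeq2 and the unfiltered fit each called 1, Pou3f1 (adjusted p = 0.0248 and 0.00614; 15 and 87 genes), beside 0. The cause of these changes was not tested. The clone as a block changed no call among the 10 genes: in that paired fit 0 passed in ESC and 1 in iPSM with Clock/Bmal1 (Pou3f1, log2 2.17, adjusted p = 1.37e-04), while the count over all genes went from 95 to 158 in ESC, from 69 to 132 and from 13 to 25 for the differences between transgenes in iPSM and ESC, and from 0 to 2 between cell types. RLE in place of TMM scaling shifted the median of all genes by at most 0.0545 on the log2 scale. With 2 clones a group, a gene that misses the threshold is not shown to be unchanged.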
